A study of Mus musculus with 14 samples.

Results

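The genes that build fatty acids, triglycerides and cholesterol were followed through mouse liver tumours in which the transcription factor NRF2 was activated by genome editing. They are 38 genes taken by symbol from a fixed list, 19 of a fatty acid and triglyceride arm and 19 of a sterol arm. All 38 were found among the 16821 genes of a first deposited table and the 16095 genes of a second. RNA sequencing measured gene expression in hepatocellular carcinomas of the mouse driven by MYC, with a cell type label of hepatocytes. Every tumour was edited with Cas9 or is a control, and the labels do not say whether the tumours came from separate animals. The first table holds 4 tumours with a guide against GFP (sgGFP, the control), 3 with a guide against Cul3 (sgCul3) and 3 with a guide against Keap1 (sgKeap1). The second holds 2 tumours in which the ETGE motif of NRF2 was targeted (sgNrf2 A and B) and 2 controls (A and B), which the labels call repeats of sgGFP tumours 2 and 4. KEAP1 holds NRF2 by its ETGE motif and hands it to the CUL3 ubiquitin ligase, so each of the 3 guides is meant to activate NRF2. All the tumours share the MYC driver, and none without MYC is used here. Sex, age, strain and the way in which MYC and Cas9 were delivered are not stated in the labels, and the edits themselves cannot be read from gene counts.

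In the liver, fatty acid synthesis starts from citrate, which ATP citrate lyase (Acly) cleaves to acetyl-CoA. The acetyl-CoA carboxylase Acaca makes malonyl-CoA in the cytosol, and fatty acid synthase (Fasn) builds palmitate from it. Acacb makes malonyl-CoA at the mitochondrial surface. Desaturases and elongases then shape the chain, and acyltransferases store it as triglyceride. Cholesterol is built from the same acetyl-CoA through mevalonate, squalene and lanosterol. The transcription factor SREBP1 (Srebf1) is known for driving the first arm and SREBP2 (Srebf2) the second. INSIG1 and INSIG2 hold both in the endoplasmic reticulum when sterols are plentiful, and ChREBP (Mlxipl) drives lipogenesis when glucose is high.

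SREBPs bind sterol regulatory elements close to the start of their target genes, so the 300 bases around each start (250 before and 50 after, RefSeq, GRCm38.p6) were searched on both strands for the letters TCACNCCAC. RefSeq held windows for 29 of the 38 genes, 38 windows in all. Only 2 held these letters, 5.26% of the windows against 1.24% of 32851 windows of all genes. They are printed here because they carry that element, in capitals, 5′ to 3′ on the plus strand. The first is the window of Hmgcs1 at chr13:119690101-119690400, where the element starts 137 bases before the start (position -137), and the second is a window of Mlxipl at chr5:135106641-135106940, with the element at -136.
Hmgcs1: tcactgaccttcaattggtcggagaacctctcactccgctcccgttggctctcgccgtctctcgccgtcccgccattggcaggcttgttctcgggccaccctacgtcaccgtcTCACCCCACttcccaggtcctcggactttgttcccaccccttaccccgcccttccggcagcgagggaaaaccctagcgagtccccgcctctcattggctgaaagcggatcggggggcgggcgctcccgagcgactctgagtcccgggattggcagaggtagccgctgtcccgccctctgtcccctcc
Mlxipl: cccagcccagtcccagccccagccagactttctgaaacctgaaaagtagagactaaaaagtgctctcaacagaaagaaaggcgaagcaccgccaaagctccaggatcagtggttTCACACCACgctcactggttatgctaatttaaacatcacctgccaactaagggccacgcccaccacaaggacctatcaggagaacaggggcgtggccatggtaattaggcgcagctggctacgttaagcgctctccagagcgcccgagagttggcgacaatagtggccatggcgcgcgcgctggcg
NF-Y, a factor known to work beside SREBPs, binds the letters CCAAT. These stood in a window of 23 of the 29 genes (79.3% against 41.1% of all genes), 14 of 15 in the sterol arm and 9 of 14 in the fatty acid and triglyceride arm. The window of Mvk, mevalonate kinase, held 5 of them, more than any other member's. It is shown for that reason, chosen after its letters were seen, with these letters, read on either strand, in capitals (chr5:114444019-114444318, plus strand).
Mvk: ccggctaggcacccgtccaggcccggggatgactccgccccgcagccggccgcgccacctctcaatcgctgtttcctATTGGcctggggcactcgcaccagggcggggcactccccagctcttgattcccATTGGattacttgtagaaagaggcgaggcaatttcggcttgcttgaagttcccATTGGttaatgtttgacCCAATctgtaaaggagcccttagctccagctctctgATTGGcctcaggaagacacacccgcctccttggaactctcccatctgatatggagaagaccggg
The E-box letters CACGTG, which MYC can bind, stood in 6 of the 29 genes (20.7% against 8.09% of all genes). The antioxidant response element letters TGACNNNGC, which NRF2 can bind, stood in 5 (17.2% against 13.99%). Overlaps between motifs were not removed, and a match is a description of the window, not a site.

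Levels are given as scaled counts, that is, HTSeq reads per gene divided by a DESeq size factor, after taking off the 1 present in each deposited entry of the first table. Reads on genes numbered 6333025 to 12008223 per library there and 17819333 to 20848578 in the second table, which was scaled separately. Nqo1, a quinone reductase and a classical NRF2 target, ranged from 17.5 to 110.1 scaled counts in sgGFP, from 1780 to 4564 in sgCul3 and from 4955 to 7498 in sgKeap1. Among the libraries of the second table it had 58.2 and 282 in the controls against 6663 and 4929.8 in sgNrf2. Keap1 was 387 ± 90.2 in sgKeap1 against 652 ± 71.8 in sgGFP (SD, n = 3 and 4), and Cul3 was 422 ± 256 in sgCul3 against 1189 ± 184. All 10 hepatocyte markers on the list were measured in each group, in both tables. sgKeap1 tumour 2 stood apart. Its hepatocyte markers summed to 1298718 scaled counts against 188287 and 179313 in sgKeap1 tumours 1 and 3. Most of that sum was Alb (1046670), and without Alb the sums were 252046, 114762 and 97854 in tumours 2, 1 and 3. Of the 10 markers 9 were highest in tumour 2 of the 3, and the exception, Hnf4a, was lowest there (2959.5). Its 10 most abundant genes took 24.5% of its reads against 8.10% to 18.04% in the other libraries of the table. Among the lipid genes tested, the direction in sgKeap1 against sgGFP turned without it in 4, Srebf1, Scd1, Sc5d and Fdft1. In bulk tumours, fewer cells of a type and less RNA per cell cannot be told apart.

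Both arms spanned abundant and rare transcripts in the control tumours. Per kilobase of exon, the highest mean in sgGFP was that of Scd2, a stearoyl-CoA desaturase, at 1107 scaled counts per kilobase, followed by the triglyceride-forming acyltransferase Dgat2 at 964. The lipogenic regulator Thrsp (656) and the acyltransferase Agpat2 (633) came next. The sterol arm was led by Insig1 (476), the HMG-CoA synthase Hmgcs1 (398) and the acetoacetyl-CoA thiolase Acat2 (368). Fasn stood between these at 431. Acacb (35.3), Acaca (35.2) and the acetyl-CoA synthetase Acss2 (14.7) were the lowest of the fatty acid and triglyceride arm. The isomerase Idi1 was the lowest of all at 3.23 and did not reach the mean of 10 needed for testing in the first table. Of the 37 pairs of neighbours in this order, 36 overlapped in their ranges over the 4 tumours, and the exception was Acss2 above Idi1. Fdps, the farnesyl diphosphate synthase, shares 26.7% of its exon bases with a same-strand gene, Gm43738, and Fdft1, the squalene synthase, shares 18.3% with Ctsb on the other strand, so reads of these 2 are uncertain.

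**Figure D1:**
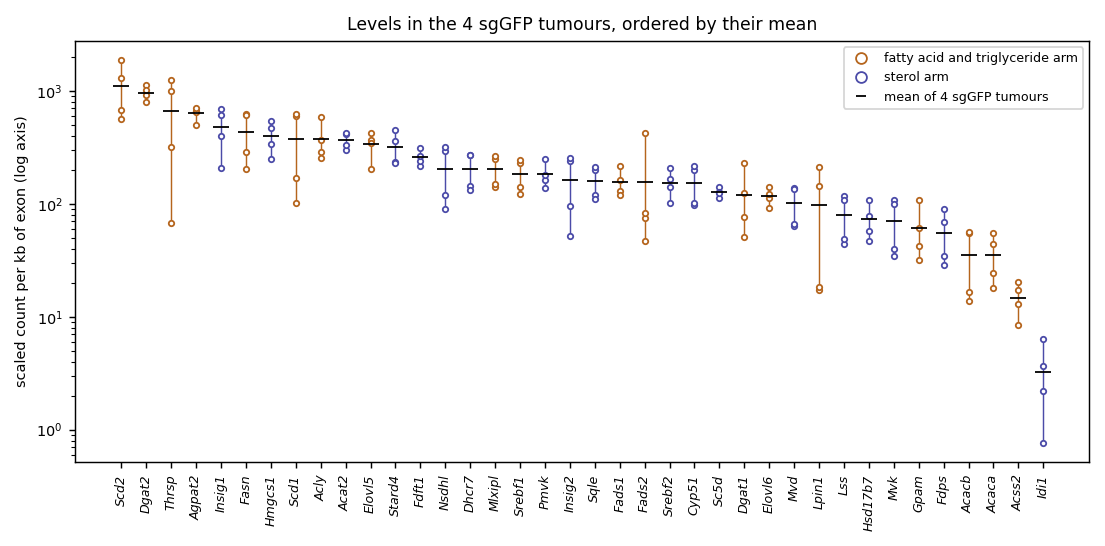
Levels of the 38 genes in the 4 sgGFP tumours, in scaled counts per kilobase of exon on a log axis, ordered by mean. Open points are tumours, thin lines their range and black dashes the mean. Scd2 leads at a mean of 1107 and Idi1 is last at 3.23, and Thrsp, Lpin1, Fads2 and Scd1 have wide ranges.

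The control tumours differed widely among themselves in these genes. Of the 37 genes tested in the first table, 20 were highest in sgGFP tumour 3, 16 in tumour 4, 1 in tumour 2 and 0 in tumour 1. Over all 13045 genes tested, these 4 tumours were highest in 24.4%, 28.3%, 20.997% and 26.3% of genes. The highest sgGFP tumour exceeded the lowest at least 2-fold in 25 of the 37 genes (67.6% against 39.6% of all genes). The fatty acid and triglyceride arm had a median ratio of highest to lowest of 3.06, the sterol arm of 2.16 and all genes of 1.79. Thrsp had a ratio of 18.6, the phosphatidate phosphatase Lpin1 of 12.3, the delta-6 desaturase Fads2 of 9.09 and the stearoyl-CoA desaturase Scd1 of 6.15. At the other end stood the sterol desaturase Sc5d at 1.27 and Dgat2 at 1.41.

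The same contrast between 2 control tumours recurred in the repeat libraries. Of the 38 genes, 33 were in the first table higher in sgGFP tumour 4 than in tumour 2, 16 of them by more than 1 on the log2 scale (42.1% against 7.17% of all genes), with a median log2 ratio of 0.88. In the repeats, 30 of 38 were higher in control B, the repeat of tumour 4, than in control A, the repeat of tumour 2. There 17 of them exceeded 1 (44.7% against 8.13%), and the median log2 ratio was again 0.88. The sign was the same in 29 of the 38 genes, 27 of them higher and 2 (Gpam and Fads1) lower in tumour 4. Lpin1 had log2 ratios of 2.94 and 3.05 in the first and second table, Scd1 of 1.87 and 2.25, Thrsp of 1.96 and 1.88 and the sterol dehydrogenase Nsdhl of 1.83 and 1.78. The repeats come from the same tumours, so they bear on the library and not on how tumours differ. Markers of other cells moved with this contrast. The 10 macrophage markers, all measured, summed to 6191, 6103, 1192 and 865 scaled counts in sgGFP tumours 1 to 4 and to 12807 and 1886 in controls A and B. The macrophage sum was mostly Cd5l, Lyz2 and Cd68. Of the 10 macrophage markers 7 were higher and 3 (Clec4f, Marco and Timd4) lower in sgGFP tumour 2 than in tumour 4, and 6 were higher and 4 lower in control A than in control B. Hepatocyte markers summed to 125209, 230058, 352063 and 406209 in sgGFP tumours 1 to 4 and to 510371 and 878560 in controls A and B. Of these 10 markers, 9 were lower in sgGFP tumour 2 than in tumour 4, and 9 in control A than in control B. Neutrophil sums were 5432 and 2116 in sgGFP tumours 2 and 4 and 11565 and 5494 in controls A and B. Cholangiocyte sums were 358 and 92.2, and 650 and 192. Lymphocyte sums were higher in tumour 2 and control A too, and erythroid and endothelial sums lower. Adipocyte and stellate or fibroblast sums changed direction between the tables. The part of these cell types in the lipid gene levels was not tested. Of 8 adipocyte markers 2 were measured, and Adipoq, Plin1, Lep, Cfd, Adig and Slc7a10 had no entry in either table used here.

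**Figure D2:**
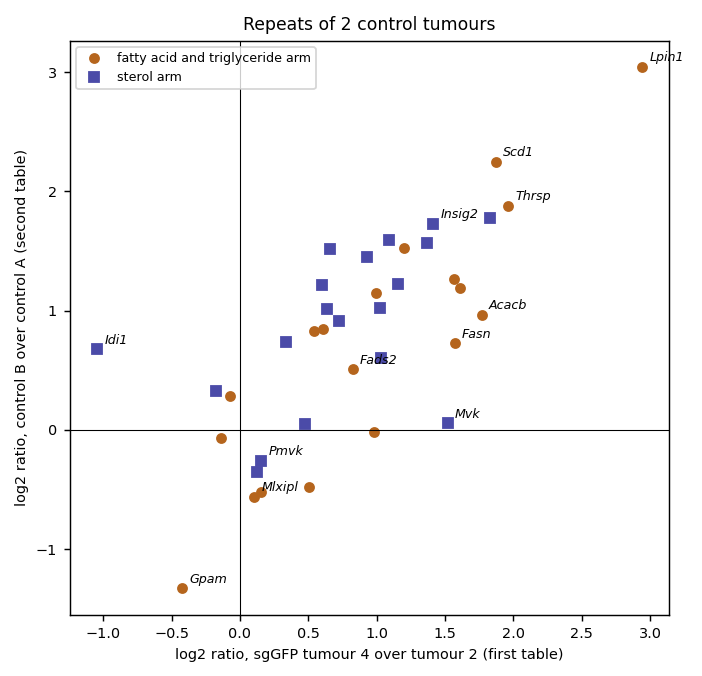
Log2 ratio of sgGFP tumour 4 to tumour 2 in the first table (x axis) against that of control B to control A, their repeats, in the second (y axis), for the 38 genes. Circles are the fatty acid and triglyceride arm and squares the sterol arm. In all, 27 genes lie above 0 on both axes, and Lpin1 is farthest out at 2.94 and 3.05.

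**Figure D3:**
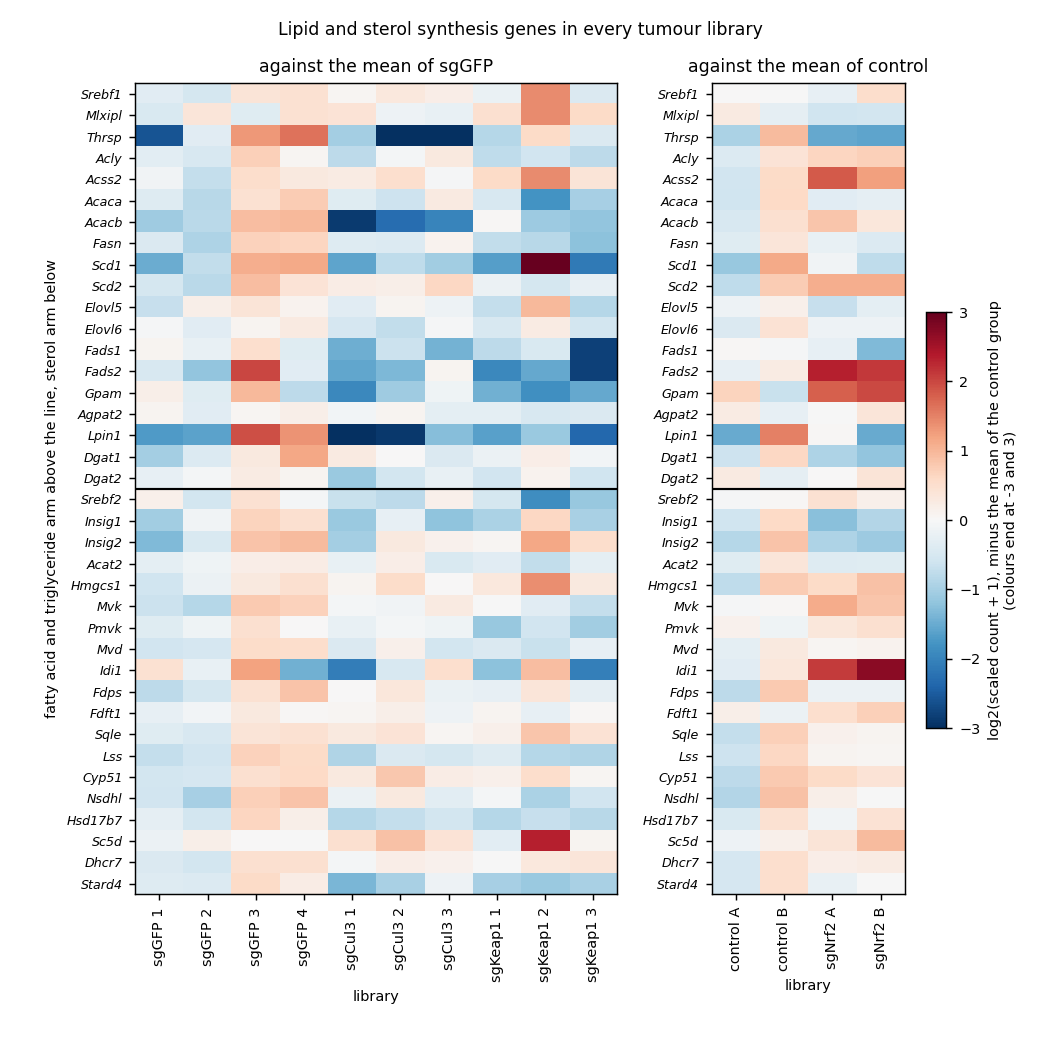
Each gene in each library as log2(scaled count + 1) minus the mean of sgGFP (left) or of the controls (right), with colours that end at -3 and 3. The sgGFP tumours 3 and 4 and control B are red over most rows, and single rows such as Acacb in sgCul3 and Fads2 in sgNrf2 differ as a block.

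Targeting Cul3 left nearly all of the lipid genes without a call. Genes were called at a limma adjusted p (Benjamini-Hochberg over all genes tested) under 0.05. In sgCul3 against sgGFP, Acacb fell in the main design, which has no block for the tumour number, and the other 36 tested genes did not pass. Tumours of the same number deviated together in these groups, and with the number as a block 0 were called and Acacb had an adjusted p of 0.091. Without the block, 0 genes were called higher (background 1.35% of all genes) and 1 lower (background 0.851%). At an unadjusted p under 0.05 there were 0 higher and 8 lower. Over all 13045 genes tested, 1183 were higher and 1058 lower at that threshold. The median log2 fold change was -0.24 over the fatty acid and triglyceride arm and -0.10 over the sterol arm, against 0.01 over all genes. The median of the sterol arm turned to 0.08 when tumour numbers were blocked. The 95% interval of the log2 fold change lay within 1 of 0 for 14 of the 37 genes, so for the others a change of more than 1 is not excluded. Groups did not overlap in 1 gene higher in sgCul3 (Sc5d, background 8.71%) and 3 lower (Acacb, Fads1 and, by a near tie, Hsd17b7, background 7.54%).

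Targeting Keap1 likewise gave 1 call. In sgKeap1 against sgGFP, the phosphomevalonate kinase Pmvk fell, 0 genes were called higher (background 4.45%) and 1 lower (background 3.37%), and 36 did not pass. At an unadjusted p under 0.05 there were 2 higher and 11 lower, against 1938 higher and 1869 lower of all 13045 genes tested. By DESeq2 8 passed as lower (Lpin1, Srebf2, Stard4, Fads2, Gpam, Fasn, Hsd17b7 and Pmvk) and 0 as higher. Over all genes DESeq2 called 962 lower and 1181 higher. Of the 37 tested genes, 27 had a negative log2 fold change, against 6590 of all 13045 genes. The median was -0.36 over the fatty acid and triglyceride arm and -0.39 over the sterol arm, against -0.01 over all genes. Both medians were negative under every alternative run. With libraries scaled to equal totals they were -0.56 and -0.59, where the median of all genes moved to -0.20. Without sgKeap1 tumour 2 they were -0.65 and -0.31. Groups did not overlap in 1 gene higher (Mlxipl, background 13.1%) and in 8 lower (Acly, Fads1, Fads2, Gpam, Acat2, Pmvk, Hsd17b7 and Stard4, background 12.6%).

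With both ligase guides pooled against sgGFP, 0 of the 37 genes were called in either direction (background 4.37% higher and 3.19% lower). At an unadjusted p under 0.05 there were 0 higher and 11 lower, against 1857 higher and 1667 lower of all 13045 genes. Lower calls numbered 3 with edgeR (Lpin1, Hsd17b7 and Acacb) and 7 with DESeq2, against 474 and 947 over all genes. The median was -0.45 over the fatty acid and triglyceride arm and -0.23 over the sterol arm, and without sgGFP tumour 3 the latter was 0.01. The comparisons with sgGFP share their 4 control tumours. In sgKeap1 against sgCul3, 0 genes were called (background 0.0307% higher and 0.0307% lower), and edgeR and DESeq2 called 0. At an unadjusted p under 0.05 there were 3 higher (Thrsp, Acacb and Mlxipl) and 1 lower (Pmvk), against 634 and 681 over all genes. Groups did not overlap in 3 genes higher in sgKeap1 (the same 3, background 7.52%) and 4 lower (Fasn, Scd2, Agpat2 and Pmvk, background 8.24%).

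Targeting the ETGE motif of NRF2 gave 1 call in the other direction. In sgNrf2 against the controls, Fads2 rose (1 higher, background 1.9%), 0 genes were called lower (background 2.51%) and 37 did not pass. At an unadjusted p under 0.05 there were 6 higher (Fads2, Idi1, Gpam, Mvk, Acss2 and Fdft1) and 0 lower of 38. Over all 13989 genes tested, 2127 were higher and 2109 lower. The share of higher members was thus near the background, and that of lower members, at 0, was below it. By DESeq2 5 passed as higher (Fads2, Gpam, Acss2, Mvk and Idi1) and 2 as lower (Thrsp and Insig1). Over all genes DESeq2 called 1181 higher and 1458 lower. The median log2 fold change was -0.16 over the fatty acid and triglyceride arm and 0.16 over the sterol arm, against 0.04 over all genes. With equal totals, the medians were 0.14, 0.47 and 0.34, so the sign of the fatty acid and triglyceride arm depends on the scaling, and over all genes the calls then split into 874 higher and 362 lower against 266 and 351. Without control A the sterol median was -0.29, and without control B the fatty acid and triglyceride median was 0.26. With 2 tumours a group, groups did not overlap in 11 genes higher (background 33.3%) and 8 lower (background 30.7%), shares near the background. In 5 of the 37 genes tested in both tables (Mlxipl, Acly, Fads2, Gpam and Pmvk) the groups did not overlap in opposite directions in sgKeap1 and sgNrf2, against 6.32% of all genes, and the 2 comparisons share control tumours. The 95% interval lay within 1 of 0 for 7 of the 38 genes.

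**Figure D4:**
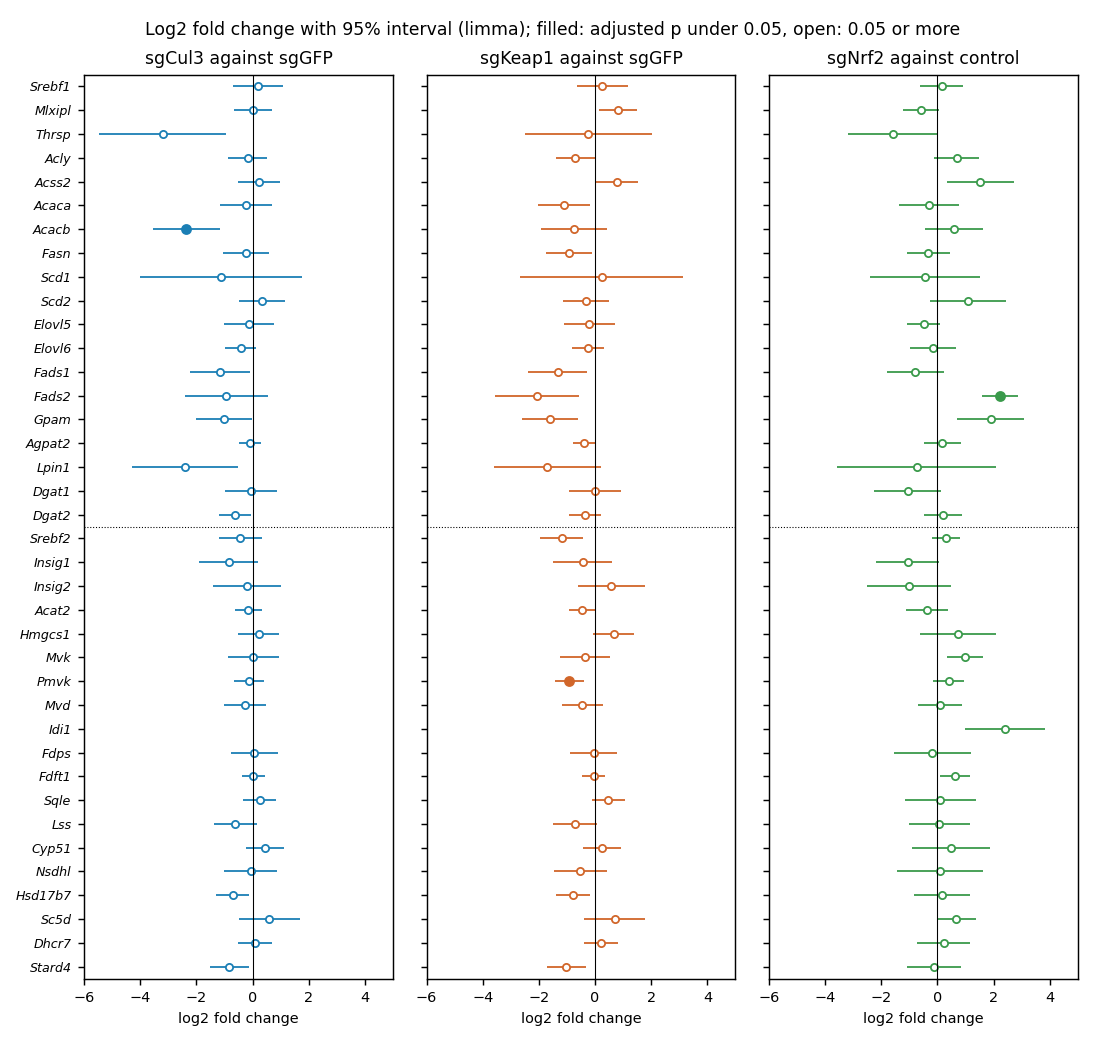
Log2 fold change (points) with 95% interval (lines) for each gene in sgCul3 and sgKeap1 against sgGFP and in sgNrf2 against the controls, fatty acid and triglyceride arm above the dotted line and sterol arm below. Filled points have an adjusted p under 0.05 in the main design, without a block: Acacb at -2.36, Pmvk at -0.91 and Fads2 at 2.22. Idi1 was not tested in the first table.

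By limma in the main design, the transcripts of the regulators did not pass in any comparison, while DESeq2 called Srebf2 lower in sgKeap1 and Insig1 lower in sgNrf2. Srebf1 had 788, 691, 1301 and 1362 scaled counts in sgGFP (here and below in the order of the tumour numbers or letters), 1025, 1244 and 1135 in sgCul3, and 863, 2643 and 737 in sgKeap1. For the second table Srebf1 had 1406 and 1388 in the controls and 1183 and 2021 in sgNrf2. The groups overlapped, and the high value was that of sgKeap1 tumour 2. Its log2 fold changes were 0.19 ± 0.41 in sgCul3, 0.26 ± 0.41 in sgKeap1 and 0.15 ± 0.30 in sgNrf2 (SE, adjusted p by limma = 0.85, 0.70 and 0.77), and without sgKeap1 tumour 2 the value in sgKeap1 was -0.31 (adjusted p = 0.58).

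Srebf2 had 1183, 733, 1476 and 1018 scaled counts in sgGFP, 669, 619 and 1192 in sgCul3, and 739, 292 and 482 in sgKeap1. It had 1442 and 1493 in the controls and 2025 and 1622 in sgNrf2. sgKeap1 tumours 2 and 3 lay below every sgGFP tumour and tumour 1 within their range, while both sgNrf2 tumours lay above both controls. The log2 fold change in sgKeap1 was -1.18 ± 0.35 (adjusted p by limma = 0.062, 0.024 to 0.22 across alternatives, and under 0.05 with DESeq2, with the replicate block and without sgKeap1 tumour 1) and in sgNrf2 0.30 ± 0.20 (adjusted p = 0.35). Mlxipl, which carries the element printed above, had 781, 1373, 835 and 1475 in sgGFP, 1416, 957 and 917 in sgCul3, and 1504, 2884 and 1596 in sgKeap1. It had 3009 and 2040.2 in the controls and 1630.0 and 1685 in sgNrf2. All sgKeap1 tumours lay above all sgGFP tumours and both sgNrf2 tumours below both controls, with log2 fold changes of 0.83 ± 0.31 and -0.58 ± 0.25 that did not pass (adjusted p by limma = 0.11 and 0.19).

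Insig1 and Insig2, which retain the SREBPs, were among the genes that were highest in sgGFP tumours 3 and 4. Insig1 had 647, 1235, 2135 and 1877 scaled counts in sgGFP, 620.4, 1134 and 583 in sgCul3, 697, 2045 and 684 in sgKeap1, 2117 and 4904 in the controls and 1355 and 1756 in sgNrf2. Insig2 had 181, 332, 831 and 888 in sgGFP, 227, 560.1 and 504 in sgCul3, 481, 1034 and 658 in sgKeap1, 635 and 2109.8 in the controls and 608 and 539 in sgNrf2. Both sgNrf2 tumours lay below both controls in each gene, with log2 fold changes of -1.06 ± 0.44 for Insig1 and -1.01 ± 0.58 for Insig2 (adjusted p by limma = 0.18 and 0.29). Across alternatives the adjusted p ranged from 0.028 to 0.58 for Insig1 and from 0.023 to 0.60 for Insig2, and both were called without control A.

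Of the acetyl-CoA carboxylases, the one at the mitochondrial surface was called lower in sgCul3 in the main design, which has no block. Acacb (chromosome 5, 114146535 to 114250761, GRCm38) had 133, 158, 526 and 543 scaled counts in sgGFP and 37.3, 56.7 and 69.6 in sgCul3, with 284, 129.7 and 121 in sgKeap1. It had 334 and 654 in the controls and 835 and 594 in sgNrf2. Every sgCul3 tumour lay below every other tumour of the table. Group means came to 54.5 ± 16.3 and 340.1 ± 225 (SD, n = 3 and 4), and the log2 fold change to -2.36 ± 0.54 (SE, adjusted p by limma = 0.049). The sgGFP and sgCul3 tumours of the same number deviated together, and with the number as a block Acacb had a log2 fold change of -2.04 and an adjusted p of 0.091. In that fit sgGFP tumour 4, without a partner, adds nothing, and leaving tumour 4 out gave the same log2 fold change (-2.04). The call also ended without any 1 of sgGFP tumours 2, 3 and 4 or of sgCul3 tumours 1, 2 and 3, with adjusted p from 0.062 to 0.21. Cholangiocyte markers, all 7 measured, summed to 92.2 to 358 scaled counts in sgGFP and to 1485 to 1650 in sgCul3. Of these, 3 (Spp1, Tspan8 and Cftr) were higher in every sgCul3 tumour than in every sgGFP tumour, while Krt19 and Krt7 were at 1.56 and 4.69 in sgCul3 tumour 3, below every sgGFP tumour. Endothelial markers, all 9 measured, summed to 833.9 to 1256 in sgGFP and 457 to 793 in sgCul3, with 2 of 9 lower throughout. Erythroid and neutrophil sums overlapped between sgCul3 and sgGFP. Still, 7 of 11 erythroid and 6 of 14 neutrophil markers measured were lower in every sgCul3 tumour than in every sgGFP tumour, and 0 were higher. The part of these cell types in the Acacb result was not tested.

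The genes of palmitate synthesis and its acetyl-CoA supply did not pass by limma in the main design. Acaca, the cytosolic carboxylase, had 416, 305, 749 and 932 scaled counts in sgGFP, 423, 354 and 659 in sgCul3, 391, 156 and 271 in sgKeap1, 767 and 1750.3 in the controls and 922 and 959 in sgNrf2. Acss2, which makes acetyl-CoA from acetate, had 132, 85.9, 206 and 174 in sgGFP, 169, 201.2 and 138 in sgCul3, 213, 379 and 188 in sgKeap1, 196 and 435 in the controls and 1043 and 689 in sgNrf2. Acaca overlapped between groups and was lowest in sgKeap1 tumour 2, with a log2 fold change of -1.09 ± 0.42 in sgKeap1 (adjusted p by limma = 0.12). Acss2 was higher in both sgNrf2 tumours than in both controls, with a log2 fold change of 1.53 ± 0.46 (adjusted p by limma = 0.11). DESeq2 called Acss2 higher in sgNrf2. Fasn averaged 4722 ± 2377 in sgGFP, 3646 ± 757 in sgCul3 and 2247 ± 387 in sgKeap1, and Acly 1974 ± 788, 1729.6 ± 619 and 1152 ± 90.9. In the second table Fasn averaged 6173 ± 2150.4 in the controls and 4804 ± 476 in sgNrf2, and Acly 3585 ± 1413 and 5548 ± 179. Thrsp, a small regulator of lipogenesis, had 146, 697, 2186 and 2716 in sgGFP, 432, 59.4 and 31.3 in sgCul3, 485, 1326 and 651 in sgKeap1, 1559 and 5743 in the controls and 1029.7 and 991 in sgNrf2. The 2 lowest values were sgCul3 tumours 2 and 3, while sgCul3 tumour 1 lay within the sgGFP range, and the log2 fold change of -3.21 ± 1.03 in sgCul3 did not pass (adjusted p by limma = 0.14, 0.048 to 0.33 across alternatives).

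Among the desaturases, Fads2 rose in sgNrf2. Fads2 (chromosome 19, 10062765 to 10101746), the delta-6 desaturase that starts the making of long polyunsaturated fatty acids, had 350.4 and 499.9 scaled counts in the controls and 2101 and 1828 in sgNrf2. Group means came to 1964 ± 193 and 425 ± 106 (SD, n = 2 and 2), and the log2 fold change to 2.22 ± 0.25 (SE, adjusted p by limma = 0.034). The call ended without sgNrf2 A (adjusted p = 0.14) or without sgNrf2 B (0.10). In the first table Fads2 had 248, 153, 1387 and 272 in sgGFP, 116, 136 and 365 in sgCul3, and 89.9, 119.6 and 49.1 in sgKeap1. All sgKeap1 tumours lay below all sgGFP tumours, and the log2 fold change of -2.07 ± 0.67 did not pass (adjusted p by limma = 0.079). Markers of other cells separated these groups widely. Erythroid markers, 11 of 12 measured, summed to 17620 and 19542 in the controls against 965 and 1989 in sgNrf2, with 11 of 11 lower in both sgNrf2 tumours. Neutrophil markers, 15 of 15 measured, summed to 11565 and 5494 against 284 and 719, with 14 of 15 lower. Those of adipocytes (2 of 8 measured) were lower in sum too, and hepatocyte markers (10 of 10) came to 510371 and 878560 against 375235 and 466834. Of these 10 hepatocyte markers, 4 were lower and 2 (Apob and Hnf4a) higher in both sgNrf2 tumours than in both controls. The sums were higher in sgNrf2 for cholangiocyte (7 of 7 measured), stellate or fibroblast (9 of 9), endothelial (9 of 9) and lymphocyte markers (9 of 11). In that order, 3, 5, 6 and 3 markers lay above both controls in both sgNrf2 tumours, and 0, 1, 2 and 0 below. Macrophage sums overlapped, with 2 of 10 markers above and 5 below (Clec4f, Marco, Vsig4, Cd163 and Timd4). For all of these, their part in the Fads2 result was not tested. Fads1, the delta-5 desaturase beside it on the chromosome, averaged 1345 ± 43.9 in the controls and 835 ± 426 in sgNrf2, and 755 ± 212 in sgGFP, 337 ± 116 in sgCul3 and 357 ± 225 in sgKeap1. Its log2 fold changes of -1.17 ± 0.48 in sgCul3, -1.33 ± 0.48 in sgKeap1 and -0.79 ± 0.39 in sgNrf2 did not pass (adjusted p by limma = 0.24, 0.10 and 0.24).

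The stearoyl-CoA desaturases, which make oleate and palmitoleate, varied widely by tumour. Scd1 had 495, 832, 2952 and 3046 scaled counts in sgGFP, 464, 814 and 677 in sgCul3, and 439, 30947 and 319 in sgKeap1. The value of sgKeap1 tumour 2 was 97.0 times that of tumour 3, in the library that also stood apart in its hepatocyte markers. The log2 fold change in sgKeap1 was 0.24 ± 1.32, and -1.89 without that tumour (adjusted p by limma = 0.92 and 0.17). In the second table Scd1 had 1780.2 and 8473 in the controls and 3589 and 2306 in sgNrf2. Scd2 had 3718, 3094, 10268 and 7118 in sgGFP, 6275, 6102 and 8264 in sgCul3, 4760.4, 3742 and 4556 in sgKeap1, 6277 and 18072 in the controls and 22798 and 22776 in sgNrf2. Its values in sgNrf2 were nearly equal and above both controls, and its log2 fold change of 1.10 ± 0.53 did not pass (adjusted p by limma = 0.23). The elongases Elovl5 and Elovl6 had log2 fold changes between -0.49 and -0.14 in sgCul3, sgKeap1 and sgNrf2 against their controls, none of them called. Without sgKeap1 tumour 2, where Elovl5 was at 2222 against 698 and 628, the values in sgKeap1 were -0.78 for Elovl5 and -0.51 for Elovl6 (adjusted p by limma = 0.18 and 0.28).

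By limma in the main design, 0 of the triglyceride enzymes were called in the 5 comparisons. Gpam was called lower in sgKeap1 with DESeq2, quantile normalization, the replicate block, the 2 groups alone and without sgGFP tumour 4, and higher in sgNrf2 with DESeq2 and without either control. Lpin1 was called lower with DESeq2 in sgCul3 and sgKeap1, and with edgeR and DESeq2 for both guides pooled. Gpam, the mitochondrial acyltransferase of the first step, had 409.5, 284, 722 and 211 scaled counts in sgGFP, 95.3, 175 and 335 in sgCul3, and 134, 101 and 126 in sgKeap1. In the second table it had 599 and 238 in the controls and 1321 and 1499.9 in sgNrf2. All sgKeap1 tumours lay below all sgGFP tumours and both sgNrf2 tumours above both controls, with log2 fold changes of -1.60 ± 0.46 and 1.89 ± 0.47 (adjusted p by limma = 0.056 and 0.081). Lpin1 had 167, 178, 2057 and 1381 in sgGFP, 62.2, 71.8 and 220.5 in sgCul3, 172, 249 and 105 in sgKeap1, 347 and 2873 in the controls and 1023 and 351 in sgNrf2. The groups overlapped, since sgGFP tumours 1 and 2 lay within the range of the guide tumours, and the log2 fold changes of -2.41 ± 0.86 and -1.69 ± 0.86 in sgCul3 and sgKeap1 did not pass (adjusted p by limma = 0.18 and 0.21). Dgat1, one of the enzymes of the last step, had 154, 235, 382 and 698 in sgGFP, 376, 315 and 231 in sgCul3, 279, 363 and 297 in sgKeap1, 432 and 1040.3 in the controls and 352 and 294 in sgNrf2. It was lower in both sgNrf2 tumours than in both controls, with a log2 fold change of -1.06 ± 0.46 (adjusted p = 0.20, and 0.027 without control A). Dgat2 and Agpat2 had log2 fold changes between -0.63 and 0.20 in these comparisons and were not called.

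**Figure D5:**
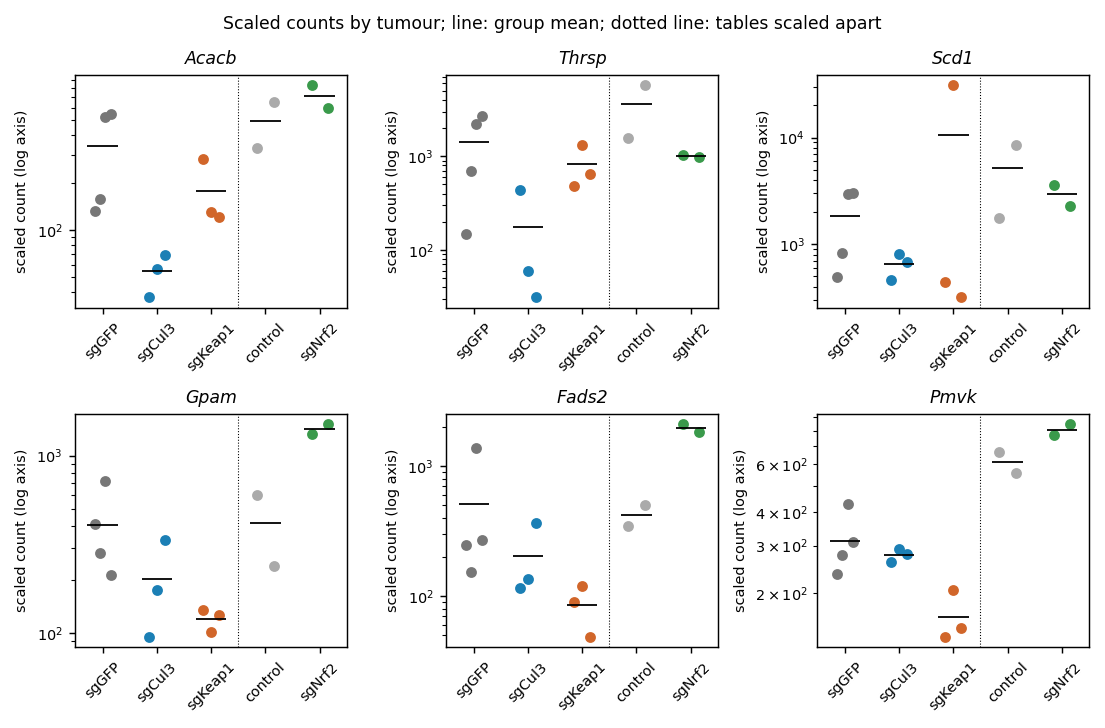
Scaled counts (log axis) of Acacb, Thrsp, Scd1, Gpam, Fads2 and Pmvk in every tumour, with group means as lines and a dotted line between the 2 tables, which were scaled separately. Acacb is at 37.3 to 69.6 in sgCul3 against 133 to 543 in sgGFP, Fads2 at 1828 and 2101 in sgNrf2 against 350.4 and 499.9, and Scd1 reaches 30947 in sgKeap1 tumour 2.

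In the sterol arm, the call was in the mevalonate steps. Pmvk (chromosome 3, 89454541 to 89469013), which phosphorylates phosphomevalonate, had 236, 278, 426 and 309.7 scaled counts in sgGFP, 261, 292 and 279.9 in sgCul3, and 138, 205 and 149 in sgKeap1. It had 665 and 556 in the controls and 767 and 843 in sgNrf2. Every sgKeap1 tumour lay below every sgGFP and sgCul3 tumour. Group means came to 164 ± 35.8 and 312 ± 81.5 (SD, n = 3 and 4), and the log2 fold change to -0.91 ± 0.24 (SE, adjusted p by limma = 0.043). The call ended without any 1 of sgGFP tumours 2, 3 and 4 or of the 3 sgKeap1 tumours (adjusted p from 0.052 without sgKeap1 tumour 2 to 0.13) and with sgKeap1 and sgGFP fitted alone (0.070). Erythroid markers, 11 of 12 measured, summed to 5115 to 15164 in sgGFP and 1969.7 to 2175 in sgKeap1, with Ermap and Rhag at 0 there. Neutrophil markers, 14 of 15 measured, summed to 920.2 to 5432 and 195 to 288, with Ctsg at 0 in sgKeap1. Cholangiocyte markers summed to 689.8 to 1824 in sgKeap1 against 92.2 to 358, with 3 of 7 higher in every sgKeap1 tumour. The part of these 3 cell types in the Pmvk result was not tested.

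The other mevalonate enzymes did not pass by limma in the main design. Hmgcs1, the synthase before HMG-CoA reductase and the other carrier of the printed element, had 1152, 1558, 2133 and 2463 scaled counts in sgGFP, 1867, 2582 and 1760.1 in sgCul3, 2190.2, 4573 and 2141 in sgKeap1, 1925 and 5507 in the controls and 4864 and 6009 in sgNrf2. Mvk, whose window is printed for its CCAAT letters, had 107, 92.1, 289 and 268 in sgGFP, 159, 154 and 199 in sgCul3, 166, 132 and 101 in sgKeap1, 246 and 256 in the controls and 544 and 448 in sgNrf2. Hmgcs1 overlapped between groups, with a log2 fold change of 0.66 ± 0.33 in sgKeap1 (adjusted p by limma = 0.21) and 0.31 without tumour 2. Mvk was higher in both sgNrf2 tumours than in both controls, with a log2 fold change of 0.97 ± 0.24 (adjusted p by limma = 0.083). Mvk was called higher in sgNrf2 with DESeq2 and with equal totals. Idi1, which turns isopentenyl into dimethylallyl diphosphate, had 7.55 and 12.7 in the controls and 45.4 and 69.9 in sgNrf2. The log2 fold change of Idi1 was 2.41 ± 0.56 and did not pass (adjusted p by limma = 0.074), while DESeq2 called Idi1 higher. In the first table Idi1 ranged from 1.38 to 22.1 scaled counts. The decarboxylase Mvd and Fdps had log2 fold changes between -0.45 and 0.09 in sgCul3, sgKeap1 and sgNrf2 against their controls.

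From squalene to cholesterol, 0 genes were called by limma in the main design. Sc5d had 544, 689, 621 and 609 scaled counts in sgGFP, 852, 1134 and 816 in sgCul3, 489.5, 3109.5 and 651 in sgKeap1, 1297 and 1628 in the controls and 1906 and 2811 in sgNrf2. Every sgCul3 tumour lay above every sgGFP tumour, with a log2 fold change of 0.59 ± 0.50 (adjusted p by limma = 0.59), and the value in sgKeap1 of 0.70 ± 0.50 became -0.12 without tumour 2. Cyp51, the lanosterol demethylase, had 428, 446, 880.4 and 950.5 in sgGFP, 769.6, 1110.4 and 738 in sgCul3, 705, 908 and 661 in sgKeap1, 919 and 2772 in the controls and 2387 and 2116 in sgNrf2. Its groups overlapped throughout. Hsd17b7, a sterol ketoreductase, averaged 371 ± 138 in sgGFP, 217 ± 23.7 in sgCul3 and 204 ± 12.7 in sgKeap1. Both guides lay below every sgGFP tumour, in sgCul3 by a near tie (240.83 in sgCul3 tumour 3 against 240.89 in sgGFP tumour 2). The log2 fold changes were -0.71 ± 0.27 and -0.78 ± 0.27 (adjusted p by limma = 0.21 and 0.090). Fdft1, Sqle, Lss, Nsdhl and Dhcr7 had log2 fold changes between -0.71 and 0.62 in sgCul3, sgKeap1 and sgNrf2 against their controls. Stard4, a carrier of cholesterol between membranes, had 1318, 1293, 2538 and 2007 in sgGFP, 663, 868 and 1549.7 in sgCul3, 866, 797 and 874 in sgKeap1, 2400.1 and 4854 in the controls and 2940.0 and 3375 in sgNrf2. All sgKeap1 tumours lay below all sgGFP tumours, with a log2 fold change of -1.02 ± 0.31 (adjusted p by limma = 0.067, 0.017 to 0.19 across alternatives).

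Other genes of the fatty acid side were counted from a list of 18, of which 17 were tested in each table. Of these, 1 was called higher in sgCul3 (background 1.35%), 2 in sgKeap1 (background 4.45%) and 1 in sgNrf2 (background 1.9%), and 0 lower. Of 20 other genes of the sterol side that were tested, 17 had a negative log2 fold change in sgCul3, 16 in sgKeap1 and 10 in sgNrf2, with medians of -0.33, -0.45 and -0.04. Over all genes tested, 6383 of 13045, 6590 of 13045 and 6703 of 13989 were negative, with medians of 0.01, -0.01 and 0.04. Malic enzyme Me1, which supplies NADPH for fatty acid synthesis and is a known NRF2 target, had 134, 422, 285 and 377 scaled counts in sgGFP, 783, 950.0 and 1371 in sgCul3, and 1820.0, 1423 and 1882 in sgKeap1. In the second table Me1 had 854 and 1066 in the controls and 3640.0 and 4281 in sgNrf2. It rose in all 3, with log2 fold changes of 1.84 ± 0.36, 2.59 ± 0.36 and 2.05 ± 0.21 (adjusted p by limma = 0.029, 0.0021 and 0.031), and the groups did not overlap. Across alternatives the adjusted p of Me1 reached 0.077 in sgCul3 and 0.11 in sgNrf2. The nuclear receptor Pparg, which drives fat storage, rose in sgKeap1 from 45.2 ± 36.5 to 196 ± 65.7, a log2 fold change of 2.42 ± 0.65 (adjusted p by limma = 0.046, 0.011 to 0.12 across alternatives). In sgNrf2 Pparg averaged 759 ± 138 against 101 ± 102, and its log2 fold change of 3.38 was not called (adjusted p = 0.084).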

How the data were processed

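Total RNA was extracted with a Qiagen kit and made into libraries with an Illumina TruSeq RNA kit, per the labels. The authors deposited 2 tables of scaled counts (unit signal: HTSeq reads per gene divided by DESeq size factors, per the labels and the submitters' processing notes, which also name Picard and mm10). Aligner, annotation and tool versions: not given in the sources used here. After removal of an added 1 from the first table, 100% of values were whole reads to within 0.1 reads, and reads were recovered. The second table also holds 4 entries for reads assigned to no gene (52.4% to 66.8% of a library), which were left out.

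In each table, genes whose deposited values averaged at least 10 (13045 and 13989 genes) entered limma 3.58.1 (R 4.3.3), two-sided, on log2 of the deposited value plus 1, which understates changes of low genes. The mean-variance trend was used, p-values were adjusted over all genes tested and called under 0.05, and the 3 groups of the first table shared 1 spread. The p-values cover the spread among these samples alone, which may be technical. Symbols, coordinates and exon lengths are those of GENCODE M21 on GRCm38. Members and lists were chosen with earlier results of these data known. Values in every library are given for called members, for Srebf1, Srebf2, Mlxipl, Insig1 and Insig2, and for the 2 highest and 2 lowest log2 fold changes per comparison and arm, and other pathway genes are named by smallest adjusted p. Calls among the other genes of the sterol side are not reported here. Fads1, Fasn, Acly, Hsd17b7 and Scd1 were named beyond this rule after their values were seen. Taken as deviations from the group mean, sgGFP and sgCul3 tumours of equal number correlated at 0.164, 0.175 and 0.314. All were over 0.1, so in this comparison the numbers were taken to pair the tumours. The main design, which gave the Acacb call, has no block and leaves this pairing out. The block was fitted over all 3 groups of the first table, sgKeap1 included. The labels do not say what the numbers stand for. Alternatives were another pseudocount (5), the added 1 removed, no filter or a minimum mean of 50, equal totals, quantile normalization, edgeR 4.0.16 and DESeq2 1.42.0 on recovered reads, the number as a block, 2 groups alone and each library left out. The limma fit was also run on simulated counts with known changes. Their spread was fixed in advance and not taken from these tumours. That run checks the code and not what could be detected here.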

Additional observations from a re-analysis of the deposited data

Results flagged for a closer look

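One control tumour stood far from the others in Fads2: sgGFP tumour 3 had 1387 scaled counts against 153 to 272 in the other 3, a gap of 0.903 of the range, above the critical value of 0.829 for 4 samples. Chance flags about 1 in 20 groups, and this was 1 of the 38 members examined in sgGFP.

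In 5 of the 37 members tested in both tables every sgKeap1 tumour lay on one side of every sgGFP tumour and both sgNrf2 tumours on the other side of both controls. The log2 fold changes in sgKeap1 and sgNrf2 were 0.83 and -0.58 for Mlxipl, -0.70 and 0.69 for Acly, and -2.07 and 2.22 for Fads2. They were -1.60 and 1.89 for Gpam and -0.91 and 0.40 for Pmvk. The differences were not tested, since the tables were scaled separately, and the controls of the second table are repeats of sgGFP tumours 2 and 4. Of the 12905 genes tested in both tables, 6.32% had such opposite, non-overlapping groups. Non-overlap by itself was common, with 13.1% of all genes higher and 12.6% lower in sgKeap1 and 33.3% higher and 30.7% lower in sgNrf2.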

How the results depend on the processing

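No call changed sign under any alternative run. In sgCul3, 0 members were lower with a pseudocount of 5 and with a mean of at least 50, 2 with DESeq2, 0 with the 2 groups alone and 0 to 2 with each library left out. In sgKeap1, 3 were lower with quantile normalization, 2 with equal totals, 8 with DESeq2 and 0 to 1 with each library left out. With both guides these were 2, 1, 7 and 0 to 2, and edgeR gave 3. In sgNrf2, 2 were higher with equal totals, 5 higher and 2 lower with DESeq2, and 0 to 6 higher and 0 to 11 lower with each library left out, 11 without control A and 6 higher without control B. With the replicate block, 0 were lower in sgCul3, 4 in sgKeap1 and 2 with both guides, and 1 was higher in sgNrf2. Same-numbered sgGFP and sgKeap1 tumours correlated at 0.199, 0.0425 and -0.0941, and controls and sgNrf2 at -0.000641, so these numbers were not taken as pairs. Those of sgCul3 and sgKeap1 correlated at 0.239, 0.518 and 0.098. Only 0.098 fell short of the 0.1 used for sgGFP and sgCul3, so pairing there is not settled. With the block, 0 members were called in sgKeap1 against sgCul3. Under the block, sgGFP tumour 4, without a partner, adds nothing. The cause of these changes was not tested. Over all genes, calls in sgCul3 were 176 higher and 111 lower, and 44 to 479 and 21 to 447 over the alternatives; in sgKeap1 581 and 439 (201 to 1181 and 113 to 962); with both guides 570 and 416 (257 to 1105 and 138 to 947); and in sgNrf2 266 and 351 (25 to 1850 and 33 to 1718). In sgKeap1 against sgCul3 there were 4 and 4 (0 to 64 and 0 to 40). With a single library left in a group of 2, it was taken to vary like the other group. The median half-width of the 95% interval of a member's log2 fold change was 0.83 in sgCul3 and sgKeap1 and 1.01 in sgNrf2, which limits what could be detected.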
